A study of Mus musculus with 8 samples.

Results

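Il24 and Il1rn are 2 of the 16649 genes in a single-cell RNA matrix of cultured mouse helper T cells. They were chosen for their lower level in Th22 than in Th17 cultures and, for Il24, for its lower level in Gpr65 knockout (KO) than in wild-type (WT) cells, so those contrasts are described here without a test. Splenic CD4+ T cells of 10-week-old female mice, either Gpr65 KO or WT, were polarized and harvested on day 3, which gave 4 groups (KO Th22, WT Th22, KO Th17 and WT Th17) with 2 libraries each. IL-1b (20 ng/ml) and IL-23 (20 ng/ml) were present in every culture, so all cells compared were exposed to IL-1. The Th22 medium held 40 ng/ml of IL-6 plus 400 nM of FICZ, which activates the aryl hydrocarbon receptor. The Th17 medium held 25 ng/ml of IL-6 and no FICZ. The 2 culture conditions thus differed in FICZ and in the IL-6 dose, and the parts of these 2 changes in any difference between them cannot be told apart. Whether the 2 libraries of a group stem from different mice or wells is not stated in the labels; a p-value here therefore reflects only how far these libraries spread, possibly for technical reasons.

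Il24 encodes a secreted cytokine of the IL-20 subfamily, which signals through IL-20 and IL-22 receptor complexes to STAT3 and acts mainly on epithelial cells. Il1rn encodes the IL-1 receptor antagonist, which binds the type I IL-1 receptor without triggering a signal and so limits the action of IL-1. The Il1rn gene gives secreted and intracellular forms of the protein from alternative first exons. Gpr65 is a proton-sensing receptor coupled to cyclic AMP, and the aryl hydrocarbon receptor (AHR) is a ligand-activated transcription factor that favours Il22 expression in helper T cells.

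Il24 (ENSMUSG00000026420) lies on the minus strand at chr1:130882074-130887454 of mm10, and Il1rn (ENSMUSG00000026981) on the plus strand at chr2:24336853-24351494. Both are protein-coding, with 4 annotated transcripts for Il24 and 6 for Il1rn. The libraries count molecules near the 3′ end of a transcript, so counts from the alternative starts of Il1rn could not be told apart. RefSeq promoter windows of 300 bases (250 before and 50 after an annotated start, GRCm38.p6) were found for Il1rn only. There were 3 windows, of which the last largely overlaps the second. The first and second are printed because Th22 cultures contain an AHR ligand and the first holds the core letters of an AHR response element. Capitals mark matches on either strand to GCGTG (AHR core), TTCNNNGAA (STAT), TGANTCA (AP-1), TGACG (CREB) or GGAAA (NFAT).

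Il1rn window 1, chr2:24336610-24336909, plus strand: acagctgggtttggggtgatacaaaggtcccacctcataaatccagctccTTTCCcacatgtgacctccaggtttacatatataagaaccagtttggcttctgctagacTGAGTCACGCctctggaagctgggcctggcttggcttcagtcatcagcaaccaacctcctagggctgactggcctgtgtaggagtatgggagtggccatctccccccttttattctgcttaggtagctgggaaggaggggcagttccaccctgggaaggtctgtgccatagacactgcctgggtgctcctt

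Il1rn window 2, chr2:24345041-24345340, plus strand: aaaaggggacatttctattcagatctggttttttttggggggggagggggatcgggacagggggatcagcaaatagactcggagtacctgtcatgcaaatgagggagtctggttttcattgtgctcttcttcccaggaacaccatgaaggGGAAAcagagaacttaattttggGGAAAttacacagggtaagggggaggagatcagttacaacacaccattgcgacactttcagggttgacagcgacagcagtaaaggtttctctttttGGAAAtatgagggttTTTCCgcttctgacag

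In window 1, an AP-1 match beginning 141 bases before the start (TGAGTCA) and a GCGTG match on the opposite strand beginning 136 bases before it share bases, so that the capital run TGAGTCACGC holds both. A GGAAA match on the opposite strand begins 200 bases before the start. Windows 2 and 3 each hold 4 GGAAA matches and no match to the other motifs, and no window holds TTCNNNGAA or TGACG. Among 32851 mouse promoter windows of the same length, 32.4% hold GCGTG, 7.81% TGANTCA, 61.3% GGAAA, 8.30% TTCNNNGAA and 20.8% TGACG. These matches describe the letters of the windows and were not tested for binding.

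The kept cells numbered 101688, at between 33826527 and 58895019 UMIs (unique molecular identifiers, 1 per captured molecule) per library. Median UMIs per cell ran from 2354 to 4142, with both KO Th17 libraries lowest, and 1199 cell barcodes occurred in more than 1 library (2.36% of kept cells). The label check came out as labelled: Gpr65 was at 0.887 and 0.964 CPM (UMI counts scaled to a common library total) in KO Th22, against 56.7 and 50.6 CPM in WT Th22, and at 1.58 and 1.55 CPM in KO Th17, against 72.9 and 72.0 CPM in WT Th17. The deleted stretch of Gpr65 is not stated in the labels, so counts at its 3′ end need not vanish. The 6 T cell markers summed to between 2560 and 4090 CPM in every library, while Cd8a reached 1.85 CPM and Cd8b1 12.8 CPM at most.

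Il24 was lowest in KO Th22 and highest in WT Th17. Its level was 3.16 and 3.54 CPM in KO Th22 libraries, against 14.1 and 11.8 CPM in WT Th22 libraries. In Th17 cultures it was 10.9 and 11.9 CPM in KO libraries, against 43.5 and 46.6 CPM in WT libraries. The order of the levels is WT Th17, then WT Th22 and KO Th17, which overlapped with each other, then KO Th22. These values rest on 146 and 187 Il24 UMIs in KO Th22, 645 and 557 in WT Th22, 448 and 469 in KO Th17, and 1531 and 1952 in WT Th17.

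The KO difference was given separately in each culture, and the culture difference in each genotype. The log2 of KO over WT was -1.95 ± 0.14 (SE) in Th22 and -1.98 ± 0.13 in Th17. The log2 of Th22 over Th17 was -1.77 ± 0.14 in KO and -1.80 ± 0.13 in WT. The KO difference in Th22 minus that in Th17 was 0.03 ± 0.19 on the log2 scale. The lower Il24 in KO and in Th22 is what the gene was chosen for, and these values are descriptions with no test.

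**Figure D1:**
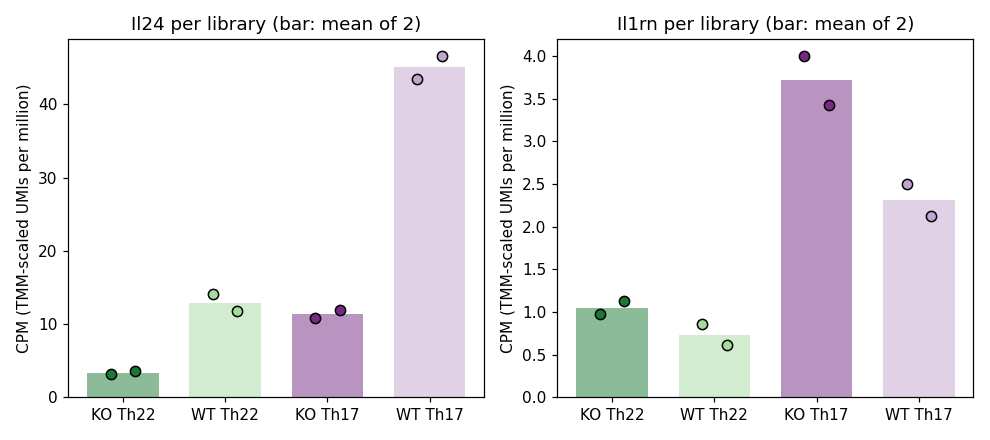
Il24 (left) and Il1rn (right) in CPM on a linear axis from 0, with 1 point per library and a bar at the mean of the 2 libraries of each group. KO Th22 has the lowest Il24 (3.16 and 3.54 CPM) and WT Th17 the highest (43.5 and 46.6 CPM), while Il1rn is highest in KO Th17 (4.0 and 3.43 CPM).

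Il1rn was also low in Th22 cultures, but the KO libraries did not have less of it. Il1rn was at 0.973 and 1.13 CPM in KO Th22, against 0.855 and 0.615 CPM in WT Th22. In Th17 cultures it was at 4.0 and 3.43 CPM in KO, against 2.50 and 2.12 CPM in WT. The order of the group means was KO Th17, WT Th17, KO Th22 and WT Th22, in which the lower place of Th22 is what the gene was chosen for. Counts were small: 45 and 60 UMIs in KO Th22, 39 and 29 in WT Th22, 165 and 135 in KO Th17, and 88 and 89 in WT Th17. The log2 of Th22 over Th17, which chose the gene, was -1.81 ± 0.22 in KO and -1.65 ± 0.23 in WT (SE).

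The KO against WT contrast did not choose Il1rn and was tested. Il1rn averaged 1.05 ± 0.114 CPM in KO Th22 and 0.735 ± 0.169 CPM in WT Th22, and 3.72 ± 0.403 CPM in KO Th17 and 2.31 ± 0.268 CPM in WT Th17 (SD, n = 2 each). The log2 of KO over WT was 0.52 ± 0.24 in Th22 (SE; edgeR quasi-likelihood test, adjusted p = 0.46) and 0.69 ± 0.21 in Th17 (adjusted p = 0.26). Over both cultures it was 0.62 ± 0.15, with an edgeR adjusted p of 0.067, which missed the 0.05 threshold. All 4 KO libraries lay above the WT libraries of their culture. The share of all genes that separate in this way is not given here, so nothing is read from that. Of all 13412 genes tested, 0.149% passed in Th22, 0.186% in Th17 and 2.93% over both cultures. The KO difference in Th22 minus that in Th17 was -0.17 ± 0.32 on the log2 scale.

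The call over both cultures depended on the method. DESeq2 gave an adjusted p of 0.037, and edgeR on G1 cells alone gave 0.035, both past the threshold at log2 values of 0.63 and 0.75. With cells thinned to equal depth, the value over both cultures was 0.65 (edgeR adjusted p = 0.22) and the value in Th22 was -0.02, and with plain library totals the adjusted p over both cultures was 0.1.

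**Figure D2:**
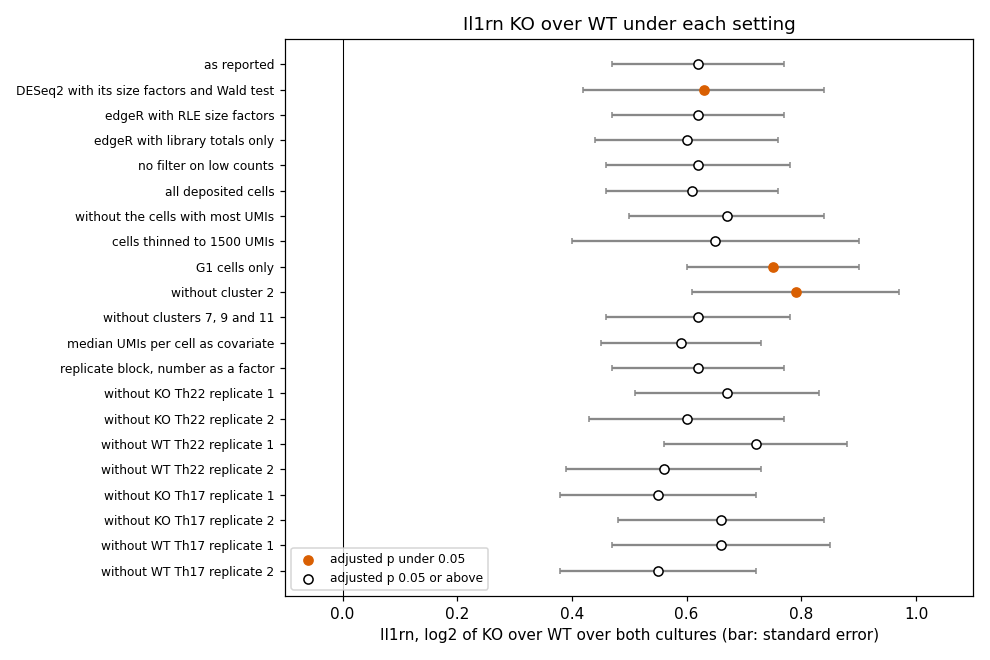
Log2 of KO over WT for Il1rn over both cultures (linear axis, bar: standard error) as reported and under each alternative, with filled points where the adjusted p was under 0.05. All values lie between 0.55 and 0.79, and only the DESeq2, G1 and without-cluster-2 points are filled.

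At equal depth, an Il24 UMI was found in a smaller share of KO than WT cells and of Th22 than Th17 cells. In Th17, positive KO cells also held fewer molecules on average. After each cell was thinned to 1500 UMIs, an Il24 UMI was found in 0.250% and 0.354% of KO Th22 cells, against 1.1% and 0.976% of WT Th22 cells. In Th17 cultures the shares were 1.19% and 1.31% in KO, against 3.37% and 3.54% in WT. Before thinning they were 0.840% and 0.710% for KO Th22, 2.08% and 2.52% for WT Th22, 1.99% and 2.11% for KO Th17, and 5.80% and 7.96% for WT Th17. Among positive cells, the thinned mean was 1.22 UMIs in both KO Th17 libraries, against 1.47 and 1.42 UMIs in the WT Th17 libraries. In Th22 the same mean was 1.38 and 1.14 UMIs in KO and 1.36 and 1.30 UMIs in WT, which overlapped. A lower level per cell also lowers the share of cells in which a UMI is found, so fewer expressing cells and less Il24 RNA per cell could not be fully told apart.

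Cells with many Il24 molecules were rare, and rarer in KO than in WT libraries. Cells with at least 5 Il24 UMIs, without thinning, numbered 5 and 6 in KO Th22, against 27 and 25 in WT Th22. They numbered 7 and 9 in KO Th17, against 75 and 116 in WT Th17. They held 11.4% and 12.6% of all Il24 UMIs in KO Th17, against 37.8% and 45.6% in WT Th17. In Th22 they held 23.3% and 24.6% in KO, against 30.7% and 32.7% in WT. A single cell held up to 23 Il24 UMIs, in WT Th17.

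Il1rn stayed near 1 UMI per positive cell everywhere, from 1.05 to 1.19 UMIs without thinning. At 1500 UMIs per cell, 0.0867% and 0.0866% of KO Th22 cells had an Il1rn UMI, against 0.0969% and 0.0921% of WT Th22 cells. In Th17 the shares were 0.529% and 0.408% in KO, against 0.280% and 0.206% in WT. The KO minus WT difference in the share, averaged over the 2 cultures, was 0.109 percentage points (exact permutation test within cultures, two-sided, p = 0.333 over 36 arrangements, where the smallest p the design allows is 0.0556). Without thinning it was 0.167 percentage points (exact p = 0.0556), and the shares were 0.383% and 0.369% of KO Th22 cells, 0.245% and 0.238% of WT Th22 cells, 1.01% and 0.810% of KO Th17 cells, and 0.668% and 0.752% of WT Th17 cells. Because the thinned shares in Th22 run against the CPM, no order is read from them.

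Both genes were concentrated in cluster 2 of the 12 deposited clusters, whose leading genes are Il17a, Il17f and Il22, followed by Il24 itself. Since Il24 helps define this cluster and the clusters were made from these cells, the contrast between clusters is a description. Cluster 2 took 7.23% of the cells in each KO Th22 library, against 12.9% and 13.0% in WT Th22, and 7.03% and 7.6% in KO Th17, against 11.9% and 11.4% in WT Th17. All 4 KO libraries thus had a smaller share of cells there than all 4 WT libraries, and Il17a and Il17f, which define the cluster, were lower in KO. The part of this in values within the cluster was not tested. The cluster held 63.7% to 77.0% of a library's Il24 UMIs and 35.2% to 54.5% of its Il1rn UMIs. In thinned cells pooled over all libraries, an Il24 UMI was found in 8.78% of 9521 cluster 2 cells (95% exact interval 8.22% to 9.37%), against 0.311% of 35094 cells of cluster 0 (0.255% to 0.375%). For Il1rn the shares were 0.851% (0.676% to 1.06%) and 0.0997% (0.0695% to 0.139%). The small cluster 11 had a higher Il1rn share than cluster 2, at 1.64% of 489 cells (0.709% to 3.20%), with overlapping intervals. The intervals cover counting error only. No cell type in these cultures is known to lack either transcript, so cluster 0, led by Vps37b, Atp6v0d2 and Klf2, is given as a low cluster. For Il1rn it was not the lowest, with shares of 0.095% in cluster 3, 0.0894% in cluster 6 and none in clusters 7, 9 and 10. Median UMIs per cell before thinning were 3778 in cluster 2 and 2648 in cluster 0.

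The 2 genes did not keep a fixed ratio across clusters. There were 14.7 Il24 UMIs per Il1rn UMI in cluster 2, 4.58 in cluster 1 and 3.85 in cluster 0. In cluster 11, a small cluster of 539 cells, Il1rn had 15 UMIs and Il24 had 21. In cluster 7, led by the gamma-delta T cell receptor genes Trdc and Trgv2, an Il24 UMI was found in 1.59% of 2136 thinned cells and an Il1rn UMI in 0 of 2136, which allows a share of up to 0.173% (upper bound of the exact interval).

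Within cluster 2, Il24 was again lowest in KO Th22 and highest in WT Th17. WT Th22 lay below KO Th17 there, whereas these 2 groups overlapped in whole libraries. Il24 there was at 23.8 and 28.6 CPM (of the cluster's own UMIs) in the KO Th22 libraries, against 51.7 and 65.7 in WT Th22. In Th17 it was at 92.8 and 94.8 CPM in KO, against 228 and 229 in WT. Pooled over 2 libraries, these are 26.5 CPM in KO Th22, 58.7 in WT Th22, 93.9 in KO Th17 and 229 in WT Th17. Both KO libraries lay below both WT libraries in 11 of 12 clusters in Th22 and in 11 of 12 in Th17. In whole libraries, 0.149% of all genes passed the test between KO and WT in Th22 and 0.186% in Th17; the gene was chosen on this contrast, so nothing is read from the counts. The log2 of KO over WT over both cultures was -1.23 ± 0.11 in cluster 2, -1.99 ± 0.16 in cluster 1 and -2.27 ± 0.24 in cluster 0 (SE). Il24 was thus lower in KO in low-Il24 clusters too, and the value in cluster 2 was the smallest in size of the 10 clusters in which it could be fitted, where the others ran from -1.56 to -3.53. This difference between clusters was not tested. In cluster 6, led by Crip2, no Il24 UMI was found in KO Th22, against 13 in WT Th22. With a floor of 3 UMIs over the group put for KO, this was 6.71-fold lower in KO. That value leaves out the counting error of the 13 UMIs and is no lower bound.

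For Th22 against Th17, WT libraries lay below in all 12 clusters for Il24, and KO libraries in 8 of 12. The log2 of Th22 over Th17 over both genotypes in clusters 0, 1 and 2 was -1.30 ± 0.23, -2.11 ± 0.16 and -1.82 ± 0.11 for Il24, and -1.60 ± 0.27, -2.01 ± 0.32 and -1.79 ± 0.19 for Il1rn (SE). In whole libraries, 0.149% of all genes passed between Th22 and Th17 in WT, 0.119% in KO and 1.94% over both genotypes; both genes were chosen on this contrast, so nothing is read from these values.

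Il1rn rose in KO within cluster 2. It was at 4.57 and 4.60 CPM of the cluster's UMIs in KO Th22, against 1.83 and 2.81 in WT Th22, and at 17.0 and 18.3 CPM in KO Th17, against 7.1 and 9.72 in WT Th17. These rest on 41 UMIs in KO Th22, 33 in WT Th22, 117 in KO Th17 and 88 in WT Th17. The log2 of KO over WT was 1.02 ± 0.19 (SE, edgeR adjusted p = 0.0092). This fit counts the Th17 and Th22 libraries of a genotype as independent. If these share mice, the p-value may be too small. In this cluster 2.4% of 10509 genes passed. Without WT Th17 replicate 2 the log2 value was 0.91 and the edgeR adjusted p was 0.0522. In cluster 1, led by Ccl4, Rgs16 and Hivep3, the log2 value was 0.84 ± 0.31 (edgeR adjusted p = 0.12, 7.43% of genes passed). In cluster 0 it was 0.45 ± 0.27 (edgeR adjusted p = 0.48, 1.23% passed). The other clusters had too few Il1rn UMIs for a fit. In cluster 8, led by Ccl5, Isg15 and Ifit1, KO Th17 had 19 Il1rn UMIs (8.72 CPM within the cluster) and WT Th17 had 0. With a floor of 3 UMIs over the group put for WT, this was 4.2-fold higher in KO. That value leaves out the counting error of the 19 UMIs and is no lower bound. In Th22 the same cluster ran the other way on very few UMIs, with 1 in KO and 3 in WT, and KO lay wholly below WT. Cluster 4, led by Csta2, had 4 UMIs in KO Th22 and 7 in WT Th22, with KO below WT, and 16 in KO Th17 and 4 in WT Th17, with KO above WT. Whether Il1rn differed more in cluster 2 than elsewhere was not tested. With cluster 2 left out of the libraries, the log2 value over both cultures was 0.79 ± 0.18 (edgeR adjusted p = 0.0495).

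**Figure D3:**
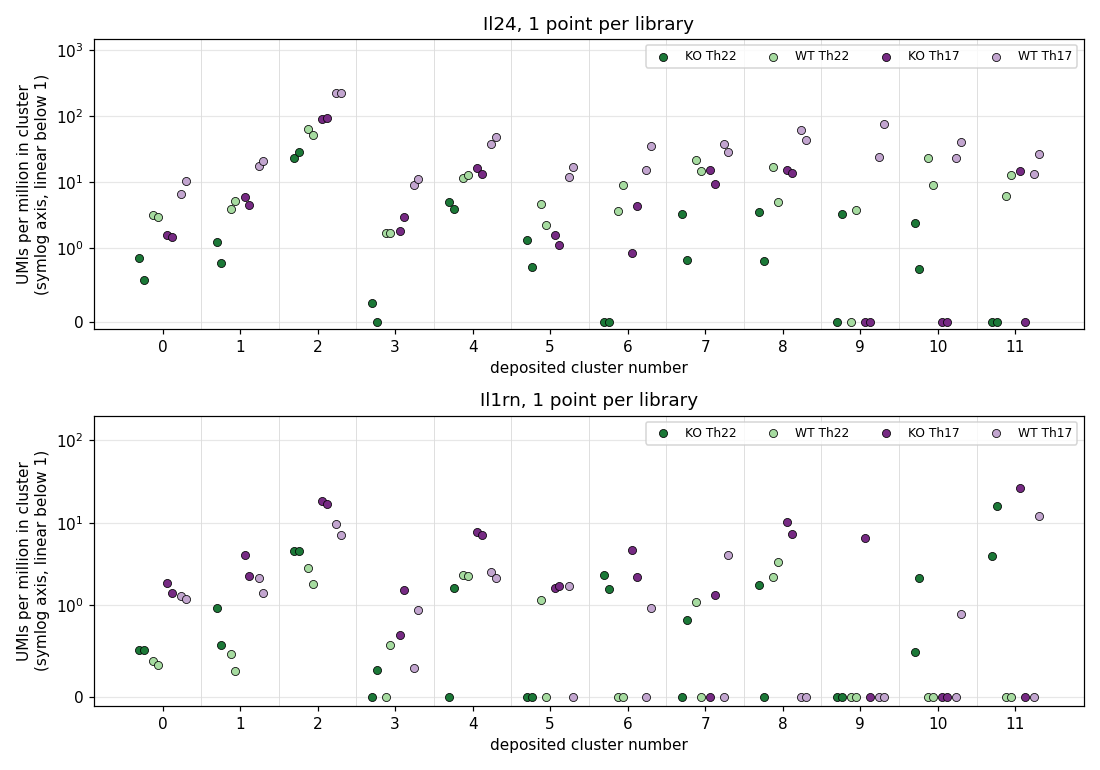
CPM of Il24 (top) and Il1rn (bottom), over the UMIs of the cluster, in each of the 12 deposited clusters, with 1 point per library, on an axis that is linear below 1 and logarithmic above. Cluster 2 is highest for Il24, with WT Th17 near 229 and KO Th22 near 26.5, and for Il1rn both KO Th17 points of cluster 2 stand above both WT Th17 points.

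Il24 and Il1rn were found in the same cells more often than the rate in other cells of the same library gives. Of 1326 thinned cells with an Il24 UMI, 17 also had an Il1rn UMI (1.28%, 95% exact interval 0.749% to 2.04%), against 0.208% of 91720 cells without Il24. The expected number, taken within each library from the rate in cells without Il24, was 3.04, and taken from cells without Il1rn it was 3.38. Inside cluster 2, 15 cells held both, against expected numbers of 7.43 and 8.58. By library these were 0 and 1 cells in KO Th22, 0 and 0 in WT Th22, 1 and 4 in KO Th17, and 5 and 4 in WT Th17. From the 2 frequencies multiplied, 1.99 and 2.33 are expected in KO Th17 and 2.1 and 1.6 in WT Th17, so the excess inside the cluster lay mainly in WT Th17.

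The Il24-positive cells carried Th17-type cytokines. Il17a, the main Th17 cytokine, was found in 10.8% of them and in 0.816% of cells without Il24. Il17f, its close relative, was found in 12.3% and 1.93%, and Il22, an IL-10 family cytokine that acts on epithelia, in 7.92% and 0.918%. Of the 208 Il1rn-positive cells, 7.21% had Il17a, against 0.944% of cells without Il1rn, and 8.17% had Il24, against 1.41%. Within cluster 2, Il17a was found in 16.5% of Il24-positive cells and in 6.25% of the others, and within libraries this was 2.06 times the expected number. Il17f was found there in 18.7% and 14.1% when libraries were pooled, but within libraries in 156 cells against 147 expected (1.06 times), and in KO Th17 replicate 2 in 4.9% of Il24-positive cells and 13.6% of the others. These comparisons count cells of the same 8 libraries and carry no test across samples.

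**Figure D4:**
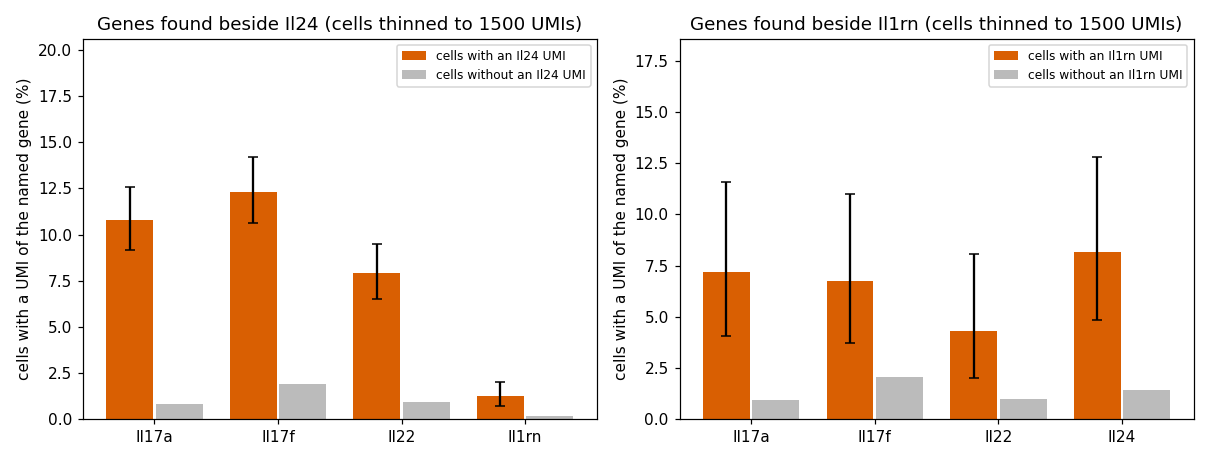
Share of cells with a UMI of Il17a, Il17f, Il22 or the other member, among cells with (orange) and without (grey) an Il24 UMI (left) or an Il1rn UMI (right), pooled over 8 libraries thinned to 1500 UMIs per cell; error bars are 95% exact binomial intervals for the orange bars. Il17f was found in 12.3% of Il24-positive cells and Il24 in 8.17% of Il1rn-positive cells.

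Genes were then ranked by observed against expected co-detection within libraries, leaving out unnamed genes, receptor gene segments and genes found in fewer than 20 Il24-positive or 8 Il1rn-positive cells; this ranking was chosen after values were seen. Il24 was found most with Il22 (105 cells, 11.7 times the expected number), Il17a (143 cells, 9.36 times), the IL-1 family alarmin Il33 (23 cells, 8.50 times), Timd2 (57 cells, 7.30 times) and Inhba, an activin subunit (179 cells, 6.62 times). Il1rn was found most with Timd2 (11 cells, 7.63 times) and Hamp, which encodes the iron hormone hepcidin (18 cells, 7.25 times). Il24 was also found with Gpr65 in 172 cells, 2.12 times the expected number, and Il1rn with Gpr65 in 9 cells, 1.36 times. Within cluster 2 alone these ratios were lower. For Il24 they were 2.67 with Il22, 2.06 with Il17a, 2.88 with Il33, 2.15 with Timd2 and 2.31 with Inhba. For Il1rn they were 2.76 with Timd2 and 3.58 with Hamp. With Gpr65 they were 1.34 for Il24 and 0.721 for Il1rn (4 cells against 5.55 expected).

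Il1rn is well known from monocytes, macrophages and neutrophils, so their markers were counted. Of the 8 monocyte or macrophage markers, 6 were measured and Lyz2 and Adgre1 were not analysed here. The 6 summed to 167 and 147 CPM in KO Th22, 164 and 155 in WT Th22, 157 and 134 in KO Th17, and 152 and 143 in WT Th17, which is mostly Cst3 and Cd68. The defining markers were nearly absent, with 6 UMIs of Csf1r, 8 of Cd14 and 139 of Itgam in all kept cells. Among the 208 Il1rn-positive thinned cells, Cst3 was found in 41, Cd68 in 8, Fcgr3 in 1, and Csf1r, Cd14 and Itgam in none. A UMI of at least 1 of the 6 was found in 21.6% of Il1rn-positive cells and 24.6% of Il24-positive cells, against 19.6% of cells without each gene. How often these markers are found in monocytes at this depth is not known from these data, and the part of such cells in the Il1rn and Il24 counts was not tested. A UMI of at least 1 T cell marker was found in 89.9% of Il1rn-positive cells and in 95.9% of Il24-positive cells, against 98.5% of cells without each gene. Of the neutrophil markers, Csf3r reached 0.212 CPM at most, Ly6g ran from 5.1 to 17.7 CPM and was found in 2 Il1rn-positive cells, and S100a8 and S100a9 were not analysed here. Keratinocytes are a known source of Il24 in skin; Krt18 reached 1.21 CPM at most, and Epcam ran from 3.13 to 19.2 CPM and was found in 13 of the 1326 Il24-positive cells. Doublets were not removed, and their part in the co-detection was not tested.

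The genes whose profile over the 8 libraries was most like that of Il24 were Il17a and Fcmr, with root mean square differences in centred log2(CPM + 1) of 0.33 and 0.41, against a median of 1.22 over 7833 genes. Among the next were Itga3, Selp, Sdc4, Il17f and Nebl, from 0.66 to 0.78. Il17a stood at 5.02 and 5.73 CPM in KO Th22, 20.1 and 16.0 in WT Th22, 10.0 and 13.0 in KO Th17, and 39.9 and 36.1 in WT Th17. Over the 12 clusters, Ermn and Ccdc71l were nearest (0.61 each, median 1.21), followed by Ebf1, Pdgfa and Lum. The points share libraries and depth, and likeness says nothing of shared control.

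Fcmr, which encodes the receptor for the Fc part of IgM, is also the gene nearest to Il24 on the chromosome. It lies on the plus strand at chr1:130865669-130880791, and its 3′ end is 1283 bases from the 3′ end of Il24, so the 2 genes converge. Fcmr was at 1.82 and 2.16 CPM in KO Th22, 5.68 and 5.05 in WT Th22, 5.68 and 7.07 in KO Th17, and 14.0 and 14.0 in WT Th17. It was lower in KO (log2 -1.27 ± 0.12 SE over both cultures, edgeR adjusted p = 0.0015) and in Th22 (log2 -1.52 ± 0.12 over both genotypes, edgeR adjusted p = 0.0005). Of all genes, 2.93% passed the first test and 1.94% the second. Fcmr was also picked for its likeness to Il24 over these libraries, and Il24 was chosen for these falls. The 2 tests are therefore not independent evidence. An Fcmr UMI was found in 85 Il24-positive cells, 5.77 times the expected number, and in cluster 2 in 66 such cells, 3.03 times. With Il1rn it was found in 3 cells, 1.48 times. The sources used here do not say how the counting treated the strand or molecules beyond a gene's end, and their part in the Fcmr counts was not tested. Of the other genes within 100000 bases of Il24, Il19, another IL-20 subfamily cytokine, reached 0.146 CPM at most, and Il20, Pigr and Fcamr were not analysed here.

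Il1rn was most like Inhba (0.15), Odc1, the first enzyme of polyamine synthesis (0.21), and Gprin3 (0.23), against a median of 0.59 over the same genes, followed by Mdfic, Atf3, Cd274, Dapl1 and Pik3ap1 up to 0.25. Il1rn itself lay under the 5 CPM asked of these genes, and at such levels the pseudocount of 1 shrinks its differences. The fitted log2 of Th22 over Th17 was -1.74 for Il1rn, against -1.10 for Inhba and -0.91 for Odc1. For KO over WT these values were 0.62, 0.24 and 0.20, so this likeness does not mean changes of equal size. Inhba was at 13.3 and 14.4 CPM in KO Th22, 13.8 and 10.8 in WT Th22, 27.6 and 34.5 in KO Th17, and 27.0 and 23.2 in WT Th17. Cd274, which encodes the checkpoint ligand PD-L1, was at 17.7 and 13.3 CPM in KO Th22, 8.88 and 10.5 in WT Th22, 36.1 and 25.7 in KO Th17, and 18.4 and 18.7 in WT Th17. Over the clusters, Furin, a proprotein-processing enzyme, was nearest (0.26, median 0.88), followed by Lif, Gpd2, Marcks and Tfb2m. Of the neighbours of Il1rn on chromosome 2, Psd4 had log2 values of -0.06 ± 0.08 for KO over WT and -0.23 ± 0.08 for Th22 over Th17 (SE; edgeR adjusted p = 0.76 and 0.23), and Pax8 reached 0.569 CPM at most.

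**Figure D5:**
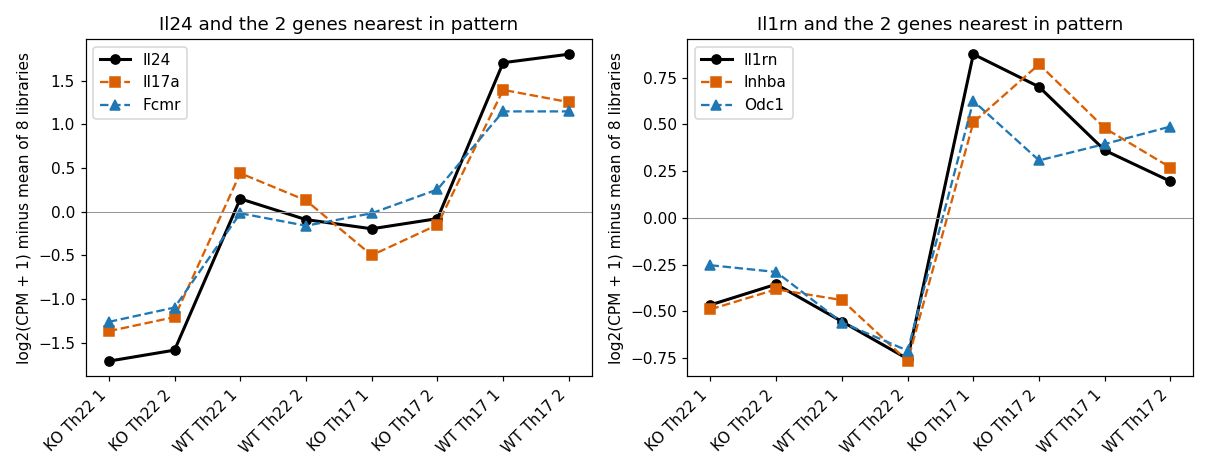
Log2(CPM + 1) minus the mean of the 8 libraries (linear axis), per library, for Il24 with Il17a and Fcmr (left) and for Il1rn with Inhba and Odc1 (right). Il24, Il17a and Fcmr are all lowest in KO Th22 and highest in WT Th17, and Il1rn, Inhba and Odc1 are lower in all 4 Th22 libraries than in all 4 Th17 libraries.

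Il24 and Il1rn were then set beside 9 lists of genes from their pathways, of which 86 distinct genes were tested. Between KO and WT over both cultures, 1 was higher and 6 were lower, against 1.41% of all genes higher and 1.52% lower. Between Th22 and Th17 over both genotypes, 10 were higher and 8 lower, against 1.01% and 0.925% of all genes. At such shares a short list often holds no call, so a list with none is not read as unchanged. The lists were drawn up with earlier results of these data known, so these counts are not independent evidence. The median log2 value of a list ran from -0.43 (IL-20 and IL-10 family) to 0.20 (Th2 genes) for KO over WT, and from -0.43 (Th2 genes) to 1.56 (AHR pathway) for Th22 over Th17, against 0.00 over all genes. Many calls rested on single libraries. Of the 7 called between KO and WT, 2 (Il17a and Tmem176a) passed whichever 1 library was left out, and 5 did not. Of the 18 called between Th22 and Th17, 6 passed in every case (Il17a, Tmem176a, Ahrr, Cyp1a1, Cyp1b1 and Tiparp), and 12 did not; their direction stayed the same. Under plain library totals in place of TMM factors, the calls over all genes split into 117 higher and 194 lower between KO and WT, against 189 and 204 as reported, and into 68 higher and 173 lower between Th22 and Th17, against 136 and 124.

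Around Il24, the related cytokines Il19 and Il10 were near 0 and Il22 was not. Of 10 genes of the IL-20 subfamily, the IL-10 family and their receptors, 7 were measured and 4 passed the filter on low counts. For comparison, 2.93% of all genes passed the test between KO and WT and 1.01% rose in Th22. None of the 4 passed between KO and WT, and Il22 alone rose in Th22 (log2 1.48 ± 0.21 SE, edgeR adjusted p = 0.011; it did not pass without WT Th22 replicate 2 or either WT Th17 library, where the adjusted p reached 0.063). Il22 was at 16.7 and 31.9 CPM in KO Th22, 35.4 and 30.0 in WT Th22, 8.10 and 11.5 in KO Th17, and 10.8 and 9.99 in WT Th17. Il22 thus ran opposite to Il24 between the cultures. In thinned cells, an Il22 UMI was found in 105 of 1326 Il24-positive cells, 11.7 times the expected number, so most of these cells had none. The receptor chain Il20rb, through which Il24 signals, ran from 0.127 to 0.552 CPM, and Il10 stayed at or under 0.143 CPM; Il20ra and Il22ra1 were not analysed here.

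Around Il1rn, the 3 receptor chains for IL-1 did not pass in either contrast. Of all genes, 2.93% passed between KO and WT and 1.94% between Th22 and Th17, so nothing is read from that. Of the IL-1 family ligands, receptors and decoys other than Il1rn, 10 were measured, and all 10 passed the filter; Il1a and Il1b, the ligands that Il1rn opposes, were not analysed here. Il1r1, the signalling receptor, was at 0.497 and 0.662 CPM in KO Th22, 0.723 and 0.658 in WT Th22, 0.752 and 0.483 in KO Th17, and 1.25 and 1.48 in WT Th17 (log2 of KO over WT -0.71 ± 0.25 SE, edgeR adjusted p = 0.17). The decoy receptor Il1r2 ran from 6.27 to 11.6 CPM (log2 of KO over WT -0.16 ± 0.18, edgeR adjusted p = 0.67), and the accessory chain Il1rap from 0.631 to 1.40 CPM. Il33 rose in KO (log2 2.16 ± 0.46 SE, edgeR adjusted p = 0.044), at 0.541 and 2.14 CPM in KO Th22, 0.175 and 0.297 in WT Th22, 3.32 and 7.43 in KO Th17, and 1.73 and 1.0 in WT Th17; the 2 libraries of each KO group lay far apart, and with 1 library left out the call held in 2 of 8 cases (edgeR adjusted p 0.015 to 0.15). Il18r1, a chain of the IL-18 receptor, fell in KO (log2 -0.49 ± 0.10, edgeR adjusted p = 0.040), and the cytokine Il18 rose in Th22 (log2 1.38 ± 0.24, edgeR adjusted p = 0.024); with 1 library left out these held in 1 and 2 of 8 cases.

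Among 16 genes of IL-1 receptor signalling and the NF-kappaB response, none passed between KO and WT. Of all genes 2.93% passed there, so nothing is read from that. The subunits Nfkb2 (log2 -0.58 ± 0.08 SE, edgeR adjusted p = 0.0095) and Rel (-0.47 ± 0.08, edgeR adjusted p = 0.028) fell in Th22, where 0.925% of all genes fell. The median log2 value of the 16 was 0.08 for KO over WT and -0.27 for Th22 over Th17. Among 14 genes of IL-6 and IL-23 receptors and the STAT3 response, the receptor Il6ra fell in KO (log2 -0.45 ± 0.10, edgeR adjusted p = 0.049) and the shared chain Il6st rose in Th22 (0.49 ± 0.09, edgeR adjusted p = 0.037). Of 13 Th17 cytokines and regulators, 12 were tested. Il17a, Il17f, Tmem176a and Tmem176b fell in KO, with Il17a at log2 -1.74 ± 0.11 (edgeR adjusted p = 0.00025) and Il17f at -1.82 ± 0.28 (edgeR adjusted p = 0.015). In Th22, Il17a fell by 1.08 ± 0.11 on the log2 scale (edgeR adjusted p = 0.0027), while Il22, Tmem176a and Tmem176b, the last 2 being membrane channel proteins, rose.

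AHR targets were higher in the Th22 cultures. Of the 8 tested genes of the AHR pathway, 5 rose in Th22, where 1.01% of all genes rose. None of the 8 passed between KO and WT, where 2.93% of all genes passed, so nothing is read from that. Cyp1a1, the classical AHR target, was at 14.0 and 8.39 CPM in KO Th22, 9.49 and 13.6 in WT Th22, 0.0971 and 0.127 in KO Th17, and 0.0569 and 0.239 in WT Th17 (log2 6.39 ± 0.33 SE, edgeR adjusted p = 7.7e-05). The repressor Ahrr (log2 2.27 ± 0.19 SE, edgeR adjusted p = 0.00093), Tiparp (1.70 ± 0.16, edgeR adjusted p = 0.0018), Cyp1b1 and Nqo1 were the others. In the AP-1 family, Atf3 alone of 10 genes passed, lower in Th22 (log2 -0.97 ± 0.13, edgeR adjusted p = 0.0083). Of 10 cyclic AMP response genes, Sik1 (-0.97 ± 0.15, edgeR adjusted p = 0.018) and Nr4a3 (-1.08 ± 0.20, edgeR adjusted p = 0.029) fell in Th22, and none of the 10 passed between KO and WT. Of 6 tested Th2 cytokines and regulators, which were listed because Il24 is also known from Th2 cells, Gata3 (-0.61 ± 0.11, edgeR adjusted p = 0.031) and Ccr8 (-1.61 ± 0.28, edgeR adjusted p = 0.024) fell in Th22, and Il4 was not called.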

How the data were processed

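Single-cell RNA libraries (10x 3′ v3 kit, per the labels) of 8 cultures in 4 groups were used. The authors deposited 1 matrix of UMI counts per gene and cell, not normalized, with a table giving each cell its library, cluster, mitochondrial percent and cell-cycle score. Cell Ranger 5.0.1, Seurat and mm10 are named, per the submitters' processing notes. The deposited percent and score values were used only to keep cells and to pick G1 cells. Of 104660 cells, 101688 with at least 500 genes and at most 10% mitochondrial counts were kept. The clusters are the authors'; doublets were not removed, and leaving out the 8136 cells with most UMIs was an alternative. 

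UMIs were summed per library; CPM values of whole libraries use TMM-scaled totals, and those within a cluster use the cluster's own total. Then 13412 genes were tested with edgeR 4.0.16 and limma 3.58.1 in R 4.3.3 (TMM factors, quasi-likelihood test, all 4 groups in 1 fit, Benjamini-Hochberg adjustment, threshold 0.05). Values over both cultures or both genotypes came from a separate additive model of genotype and culture. That model takes the KO difference to be equal in both cultures. It also counts all libraries as independent. If Th17 and Th22 libraries of a genotype share mice, its p-values for KO against WT may be too small. DESeq2 1.42.0 was an alternative, as were other size factors, no filter, thinning, G1 cells, a depth covariate, a replicate block and leaving out each library. The additive model was also run within clusters. Shares of cells came from cells thinned to 1500 UMIs (93046 cells), with exact binomial intervals at 95% for the error of counting alone. Python 3.11.15, numpy 2.4.6, scipy 1.17.1, pandas 2.3.3 and matplotlib 3.10.9 were used. The edgeR fits for KO against WT were tried on simulated counts drawn independently for each library. Symbols were matched to GENCODE vM21 (16368, or 98.3%, matched 1 gene).

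The members and lists were chosen with earlier results of these data known. Besides Il24 and Il1rn, the text names genes of those lists, the nearest genes in profile (among genes averaging 5 CPM or more, with a pseudocount of 1), neighbours within 100000 bases and, chosen after values were seen, genes found in the same cells.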

Additional observations from a re-analysis of the deposited data

How the results depend on the processing

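With few UMIs, Il1rn limits this account. Its KO over WT log2 value in Th22 was 0.52 and became -0.02 with cells thinned to 1500 UMIs; the cause was not tested. Over both cultures it was 0.63 with DESeq2 (adjusted p 0.0368), 0.75 in G1 cells (0.0348) and 0.79 without cluster 2 (0.0495, chosen after seeing the data). Leaving out 1 library gave 0.55 to 0.72 over both cultures (edgeR adjusted p 0.0568 to 0.228), 0.57 to 0.81 in Th17, 0.30 to 0.79 in Th22, 0.35 to 0.57 in cluster 0, 0.59 to 1.09 in cluster 1 and 0.91 to 1.15 in cluster 2. Il1rn Th22 over Th17 was -1.33 in WT without the cells with most UMIs and -1.40 thinned, and in KO -2.39 thinned and -1.42 with median UMIs as covariate; leaving out 1 library gave -1.91 to -1.43 in WT, -1.93 to -1.70 in KO and -1.84 to -1.67 over both. Its KO difference in Th22 minus that in Th17 was -0.43 without the cells with most UMIs, -0.99 thinned and 0.23 with the covariate, and -0.38 to 0.09 without 1 library. For Il24, KO over WT thinned was -1.75 in Th17, -1.76 in Th22 and -1.76 over both; in Th22 it was -1.80 without the cells with most UMIs, -2.14 in G1 cells and -2.13 without cluster 2. Without 1 library it was -2.05 to -1.92 in Th17, -2.08 to -1.81 in Th22 and -2.02 to -1.91 over both. Il24 Th22 over Th17 in KO was -1.94 under library totals and -1.92 in G1 cells, and without 1 library -1.85 to -1.69 in KO, -1.93 to -1.67 in WT and -1.84 to -1.73 over both. Its KO difference in Th22 minus that in Th17 was -0.13 under library totals, -0.16 in G1 cells, -0.14 without cluster 2 and -0.09 to 0.17 without 1 library. Listed genes higher in KO numbered 3 with DESeq2, without the cells with most UMIs and without cluster 2, and 0 to 2 without 1 library; 10 were lower with DESeq2 and 2 to 6 without 1 library. Listed genes lower in Th22 numbered 4 thinned and 3 with the covariate; without 1 library 5 to 9 were higher and 1 to 8 lower. With 1 library left out, the edgeR adjusted p of single listed calls reached 0.18 (Il6ra in KO, Il6st in Th22); Il6st passed in 0 of 8 cases, Il18r1, Gata3 and Ccr8 in 1, Il33, Il6ra, Il18 and Nqo1 in 2, Tmem176b in KO, Rel, Nr4a3 and Sik1 in 3, Il17f and Il22 in 5, Nfkb2 and Tmem176b in Th22 in 6, and Atf3 in 7. Over all genes, calls between KO and WT numbered 393, against 942 with DESeq2, 197 thinned and 50 to 541 without 1 library; calls between Th22 and Th17 numbered 260, against 553, 171 and 54 to 247, and 86 with the covariate. The share difference of Il1rn was 0.0782 to 0.139 percentage points without 1 library, and 3.89% of Il24-positive cells had Il1rn without thinning.

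The labels do not say that a replicate number marks a shared animal or batch, so same-numbered libraries share only a number. Their deviations correlated at 0.566 between KO Th17 and KO Th22, 0.234 between WT Th17 and WT Th22, and -0.25 to -0.178 between KO and WT. With the replicate block, Il1rn over both cultures was 0.62 (edgeR adjusted p 0.0784) and in cluster 2 was 1.03 (0.0132), the share difference had an exact p of 0.5, and calls numbered 289 between KO and WT and 198 between Th22 and Th17. With the number as a block within genotype, calls between Th22 and Th17 numbered 1592 and listed genes lower in Th22 numbered 26. With the numbers crossed between genotypes, chosen after seeing the data, calls between KO and WT numbered 1568, with 5 listed genes higher and 13 lower.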
